A study of Mus musculus with 2 samples.

Results

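The cells described here are the 200 cells, of 2209 in all, with the highest summed expression of Mt3, Spock2, Pycr1 and Ptn in single-cell RNA sequencing of Apc-mutant mouse intestinal organoids. Both libraries of the study were ranked together on the sum of the deposited natural log values of these 4 genes, and the 200 highest cells were selected on that sum as members. Of these, 172 came from the library treated with DBZ and 28 from the library treated with DMSO. Because the 4 genes chose the cells, their levels are given as a description, and nothing is tested on them.

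Apc is the tumour suppressor whose loss leaves the Wnt pathway switched on, and intestinal organoids are small epithelial cultures that contain stem cells and their descendants. Both groups came from C57Bl mice of 3 to 4 months with mutant Apc. DBZ, a gamma-secretase inhibitor that prevents the release of active Notch, was compared with its vehicle DMSO. There was 1 library per treatment, so no difference has a replicate check, no p-value is given, and every comparison is between these libraries and not between conditions. The protocol text shared by both samples lists 300 nM 4-OH-tam and 10 uM DBZ, so both may have received 4-hydroxytamoxifen, and the sample titles were followed for the treatment. Cell names in the table carry the prefixes GSI and CTRL, which were read as DBZ and DMSO. Whether the organoids of a library came from 1 mouse or several is not given in the sources used here.

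Metallothioneins are small cysteine-rich proteins that bind zinc and copper. Mt1 and Mt2 are made in most tissues and are induced by metals, Mt3 is best known from brain, and Mt4 from stratified epithelia. Pycr1 is the mitochondrial enzyme that makes proline in the last step of its synthesis, Spock2 (testican-2) is a proteoglycan of the extracellular matrix, Ptn (pleiotrophin) is a secreted growth factor that binds heparin, and Gulo makes vitamin C in the last step of a pathway that humans have lost. The intestinal epithelium is held by Wnt and Notch signals in a balance of stem cells, absorptive cells and secretory cells, and Wnt-activated cells also make secreted and intracellular inhibitors of Wnt signalling.

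Levels are UMIs per 10000 UMIs of a cell, where a UMI counts 1 captured transcript, averaged over the cells of a group with each cell weighted equally. The DBZ library held 1241 cells and the DMSO library 968, with 16168229 and 13083018 UMIs in all. A median DBZ member had 9942.5 UMIs and 3214.5 detected genes, against 11135 UMIs and 3190 genes in the other DBZ cells. Median DMSO members and other DMSO cells had 9695 and 11232 UMIs. Mitochondrial transcripts took medians of 4.79% and 4.66% of UMIs in DBZ members and other DBZ cells, and ribosomal protein transcripts 15.1% and 19.1%. In the DMSO library the ribosomal medians were 19.3% and 25.5%. Cell barcodes shared by both libraries numbered 3, and 1 member carried one of them. Every interval below covers counting error only, since cells of 1 library are not replicates.

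Members made up 13.9% of DBZ cells (exact 95% binomial interval 12.0 to 15.9%) and 2.89% of DMSO cells (1.93 to 4.15%). DBZ cells were 86.0% of members and 56.2% of all cells. With the cell at the same relative rank taken in each library, which by its construction equalises the libraries, 112 of 200 members were DBZ cells. The highest sum was 14.5, and the median was 7.29 in members and 0.727 in the other cells, of which 681 had a sum of 0. The sum declined without a break at the limit of the members. The 199th and 200th cells had 5.3374 and 5.3367, and the 201st and 202nd 5.3308 and 5.3285. Within 0.25 of the limit lay 14 members and 24 other cells, so the members are the upper end of a range and not a separate class.

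**Figure D1:**
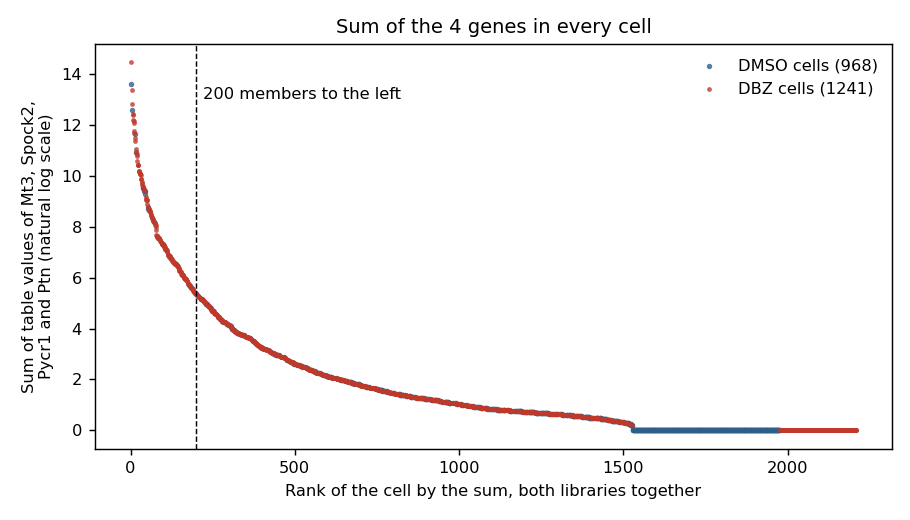
Sum of the deposited natural log values of Mt3, Spock2, Pycr1 and Ptn (vertical axis) for all 2209 cells in order of rank (horizontal axis), with DBZ cells in red and DMSO cells in blue. The curve passes the limit of the 200 members (dashed) without a step and reaches 0 in 681 cells, whose order within the tie has no meaning.

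All 4 genes were detected in 123 of 200 members, 3 of them in 70, and 2 in 7. Of the 2009 other cells, 34 had all 4. Mt3 had the highest value of the 4 in 79 members, Spock2 in 78, Pycr1 in 39 and Ptn in 4. The cells just inside and outside the limit show how mixed the sum is there. The 199th cell, from the DMSO library, had no Mt3 UMI but 18 of Spock2, 1 of Pycr1 and 5 of Ptn, and the 202nd, from the DBZ library, had 4 each of Mt3 and Spock2, 6 of Pycr1 and none of Ptn.

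Mt3 (chromosome 8, 94152607 to 94154146, plus strand, GRCm38) ranged from 0 to 134.55 per 10000 in DBZ members, with a median of 8.03 and a mean of 18.2, against a mean of 0.898 in the other DBZ cells. In DMSO members it ranged from 0 to 111.38 (median 12.9, mean 22.6), against a mean of 0.653 in the other DMSO cells. The ranges overlap, since single cells outside the members reached 34.6 and 43.9. Spock2 (chromosome 10, 60106219 to 60135198, plus strand) had a median of 11.5 and a mean of 14.9 in DBZ members and 10.9 and 13.3 in DMSO members, where it was found in every cell. Its means in the other cells were 1.48 and 0.575. Pycr1 (chromosome 11, 120635712 to 120643769, minus strand) was found in all but 1 member. The Pycr1 means were 9.40 in DBZ members and 6.74 in DMSO members, against 1.33 and 0.321 in the other cells. Ptn (chromosome 6, 36714929 to 36810220, minus strand) was the weakest of the 4, with no UMI in 61 members. Ptn averaged 2.61 in DBZ members and 5.57 in DMSO members, where the 5 highest cells gave 62.7% of the mean, against 0.183 and 0.0972 elsewhere.

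Among the members these genes did not follow one another closely. Over all 1241 DBZ cells the Pearson correlation of log values was 0.49 for Mt3 with Spock2, 0.54 for Spock2 with Pycr1 and 0.51 for Pycr1 with Ptn. Within the 172 DBZ members the same pairs had 0.19, 0.10 and 0.21. All cells of a library share its preparation and differ in depth, and choosing cells by the sum narrows the range within members, so these values are descriptive.

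**Figure D2:**
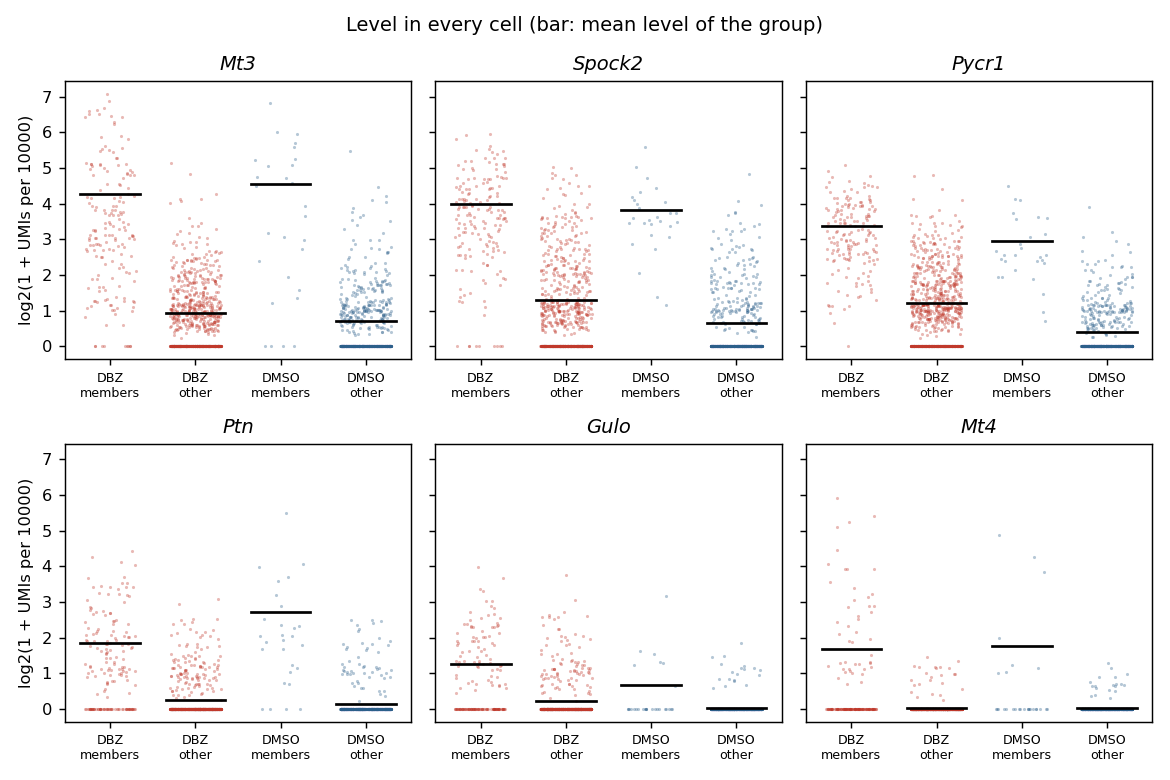
Level of the 4 genes of the sum and of Gulo and Mt4 in every cell, as log2 of 1 plus UMIs per 10000 (vertical axis), for members and other cells of each library; each point is a cell and the bar is the mean level of the group. Mt3, Spock2, Pycr1 and Ptn chose the members, while Gulo and Mt4 did not and are still absent from more than 50% of member cells.

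Gulo (chromosome 14, 65986786 to 66009207, minus strand), given with the 4 genes as a marker of these cells but not part of the sum, was higher in members of both libraries. In DBZ members it ranged from 0 to 14.9 per 10000 with a median of 0 and a mean of 1.40, and in the other DBZ cells it averaged 0.164 with a highest cell at 12.7. The log2 change, taken here and below as log2 of the ratio of means after adding 0.05 to each, was 2.76, and pooled UMIs gave 3.02 (exact conditional 95% interval 2.77 to 3.27). Gulo UMIs were found in 47.7% of DBZ members and 9.17% of other DBZ cells, or 31.4% and 5.43% after thinning every cell to 5000 UMIs. In the 170 DBZ cells highest in the Paneth defensins Defa22 and Defa24 outside the members, a cell type not known for Gulo, the share was 6.47%, or 4.71% thinned, at a median depth of 11880 UMIs. The DMSO members averaged 0.604 against 0.0227 (log2 change 3.17), but this rested on 14 UMIs in 28 cells, and the 5 highest cells gave 88.5% of the mean.

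Members also resembled each other in genes outside the sum. Over the 2000 most variable genes without Mt3, Spock2, Pycr1 and Ptn, members were 41.3% of the 15 cells nearest to a member by correlation, against 9.05% of all cells and 6.30% around other cells. Within the DBZ library alone the share was 44.0% against 13.9% of its cells, and within the DMSO library 18.3% against 2.89%. The resemblance was uneven. At least 50% of the nearest cells were members for 81 of 200 members, and for 11 none was. When only the 100 highest cells counted as members the share was 19.5% against 4.53%, and with the same relative rank in each library it was 26.6% against 9.05%.

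Background for the counts that follow is the share of all tested genes past the same limit. Genes with a UMI in at least 10% of members or of other cells were tested, the 4 genes of the sum aside, and a gene counts as higher or lower when its change was at least 1.5-fold. In the DBZ library 808 of 8851 genes (9.13%) were higher in members and 515 (5.82%) lower, with a median change of 0.08 over all of them. In the DMSO library 1700 of 9064 (18.8%) were higher and 1394 (15.4%) lower, a spread that 28 members measure far less precisely. These counts depend on the pseudocount and, in part, on pooling, as given in the closing section.

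The metallothioneins went in opposite directions. Mt4 (chromosome 8, 94137197 to 94139031, plus strand) had the largest change among all genes the naming rule took from the high end. It averaged 2.19 per 10000 in DBZ members and 0.0197 in the other DBZ cells, a log2 change of 5.0, and 2.41 against 0.0132 in the DMSO library, a change of 5.28. Few cells carried it. Mt4 UMIs were in 26.7% of DBZ members, or 21.5% after thinning, against 2.25% and 0.748% of other DBZ cells and 3.53% and 1.18% of the defensin-high DBZ cells. The 5 highest cells gave 51.2% of the mean in DBZ members and 95.1% in DMSO members. Mt1 and Mt2, the metallothioneins of most tissues, were lower in members. Mt1 (94179082 to 94180327, plus strand) averaged 4.26 in DBZ members against 9.88 in other DBZ cells (log2 change -1.20) and 4.18 against 7.23 in the DMSO library (-0.78). For Mt2 (94172664 to 94173568, plus strand) the means were 1.65 against 3.48 (-1.06) and 1.52 against 2.19 (-0.51, short of 1.5-fold). The other cells of the DBZ library reached 300.01 per 10000 for Mt1, while the highest DBZ member had 64.7, and the group medians of 2.71 and 4.52 lay closer together than the means.

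Members with an Mt4 UMI were the ones with most Mt3. In the 46 DBZ members with Mt4, Mt3 averaged 41.1 per 10000, against 9.84 in the 126 without, while Pycr1 had 8.93 and 9.57. Gulo averaged 2.36 and 1.05, and Mt1 5.65 and 3.75. The correlation of log Mt3 with log Mt4 was 0.58 over the 172 DBZ members and 0.36 over the 28 DMSO members. In the DMSO library Mt3 averaged 31.7 in the 8 members with Mt4 and 19.0 in the 20 without, whereas Gulo went the other way, 0.072 and 0.816. This split is by the detection of 1 UMI, and those 8 cells had a median of 14242 UMIs against 8267.5 in the 20, while in the DBZ library the medians were 9545 and 10339. How reads that match more than 1 metallothionein were assigned is not given in the sources used here, and Mt1 to Mt4 are related in sequence.

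The 4 genes form 1 cluster on chromosome 8 in the order Mt4, Mt3, Mt2, Mt1, all on the plus strand. Their upstream sequences are shown because Mt4 differed in direction from Mt2 and Mt1 of the same locus, with Mt3, a gene of the sum, between them. Each is the 250 bases before the RefSeq start (GRCm38.p6, plus strand, 5′ to 3′), namely chr8:94136954-94137203 for Mt4, chr8:94152357-94152606 for Mt3, chr8:94172368-94172617 for Mt2 and chr8:94178839-94179088 for Mt1. Capitals mark every match to TGCNCNC on either strand. This pattern is looser than the core of the metal response element, which has adenine or guanine at position 4.
Mt4: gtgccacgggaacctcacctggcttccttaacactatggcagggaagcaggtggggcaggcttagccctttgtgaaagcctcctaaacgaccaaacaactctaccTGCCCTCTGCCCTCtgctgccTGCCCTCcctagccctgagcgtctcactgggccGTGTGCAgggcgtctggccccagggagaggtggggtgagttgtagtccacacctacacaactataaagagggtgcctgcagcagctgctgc
Mt3: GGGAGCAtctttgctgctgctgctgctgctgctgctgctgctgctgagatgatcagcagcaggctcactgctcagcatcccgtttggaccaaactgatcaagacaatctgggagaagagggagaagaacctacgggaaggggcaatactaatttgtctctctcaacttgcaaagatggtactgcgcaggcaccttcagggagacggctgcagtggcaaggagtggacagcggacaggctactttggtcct
Mt2: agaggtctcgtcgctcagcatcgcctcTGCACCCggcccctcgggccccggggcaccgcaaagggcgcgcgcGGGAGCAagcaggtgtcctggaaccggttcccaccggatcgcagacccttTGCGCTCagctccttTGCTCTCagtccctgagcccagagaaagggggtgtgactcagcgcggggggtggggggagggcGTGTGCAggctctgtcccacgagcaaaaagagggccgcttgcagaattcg
Mt1: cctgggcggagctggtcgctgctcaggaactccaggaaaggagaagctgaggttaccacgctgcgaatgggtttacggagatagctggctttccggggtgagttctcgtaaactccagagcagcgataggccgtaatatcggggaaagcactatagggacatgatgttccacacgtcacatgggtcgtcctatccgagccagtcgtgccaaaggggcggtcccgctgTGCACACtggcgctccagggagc
The search found 4 matches to this loose pattern before Mt4, 1 before Mt3, 5 before Mt2 and 1 before Mt1. Each window ends at a RefSeq start, and the sequence beyond it was not searched. The windows may lie at different places of their promoters, so the numbers do not rank the genes by metal response elements. TGCCCTC before Mt4, GGGAGCA (read on the other strand) before Mt3 and Mt2, and TGCTCTC before Mt2 have cytosine or thymine at position 4. The counts are therefore not counts of the stricter core, which was not searched. A motif this short is common, and 44.4% of 32851 RefSeq windows of the same length held at least 1 match, so the matches describe letters and not bound sites.

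Of the 14 tested zinc genes that are not metallothioneins, 2 were higher and 1 lower in DBZ members, with 11 above 0 and a median of 0.22. With DMSO 3 of 14 were higher and 0 lower, with 8 above 0 and a median of 0.43. Slc30a2, which exports zinc into vesicles, was higher in both libraries, with 2.89 against 1.63 per 10000 in DBZ cells (log2 change 0.81) and 3.53 against 1.88 in DMSO cells (0.89). Slc30a9 had 0.61 and 0.92, and Slc30a1, which exports zinc from the cell, 0.48 and 1.10. Slc39a4, the zinc importer of the gut surface, was lower in DBZ members (-0.71) and had -0.55 in the DMSO library. Mtf1, the factor that binds metal response elements, had 0.27 and -0.14.

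Among the other enzymes of proline and serine synthesis some were lower in members and none passed the limit upwards. Of 13 tested genes of proline and serine synthesis other than Pycr1, 0 were higher and 7 lower in DBZ members, with a median of -0.71. In the DMSO library 0 of 12 were higher and 6 lower, with a median of -0.58. Aldh18a1, which makes the precursor that Pycr1 reduces to proline, averaged 0.0433 per 10000 in DBZ members and 0.285 in the other DBZ cells (log2 change -1.85, pooled interval -3.18 to -1.47), and 0.167 against 0.288 in the DMSO library (-0.64). Pycrl, the cytosolic enzyme of the step that Pycr1 carries out, had -0.16 and -0.06. Oat, which connects ornithine to proline, had 0.36 and 0.01. In serine and one-carbon metabolism Phgdh, the first enzyme of serine synthesis, had -0.71 and -0.52, Psat1 -1.17 and -0.87, Psph 0.01 and 0.25, Mthfd1 -0.89 and -0.79, and Mthfd2 -0.93 and -1.49. All of these enzymes were at low levels, with 0.0956 per 10000 for Psat1 in DBZ members, and the added 0.05 shrinks their changes.

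**Figure D3:**
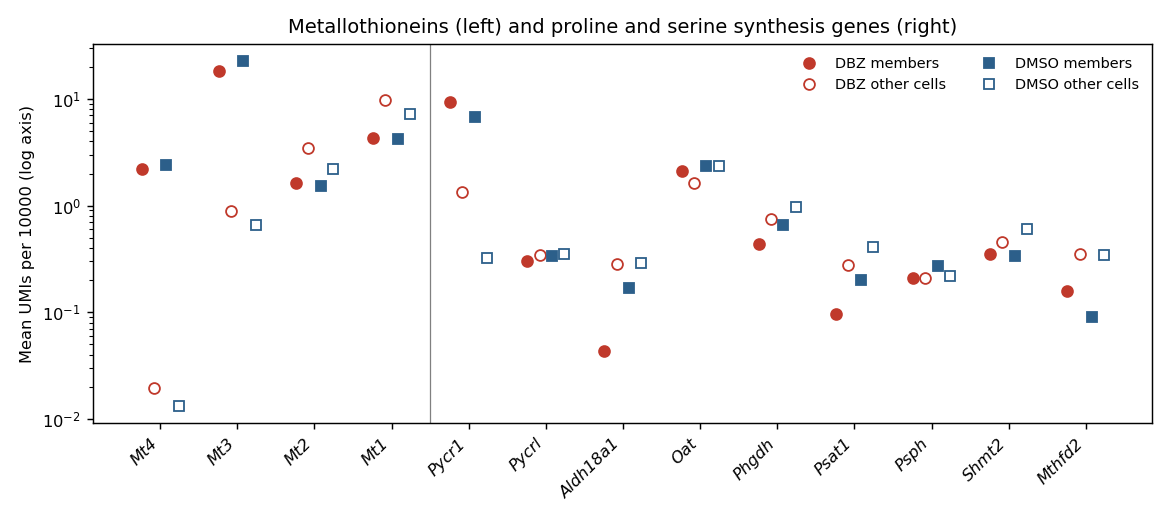
Mean UMIs per 10000 (log axis) of the 4 metallothioneins (left) and of 9 genes of proline, serine and one-carbon metabolism (right) in DBZ members, other DBZ cells, DMSO members and other DMSO cells. Mt4, Mt3 and Pycr1 lie higher in members of both libraries, while Mt1, Mt2, Aldh18a1, Psat1 and Mthfd2 lie lower; Mt3 and Pycr1 chose the members.

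The wider list of amino acid genes and targets of ATF4, the factor that induces them when amino acids are short, held more lower than higher genes. Of 39 tested genes other than Pycr1, 2 were higher and 13 lower in DBZ members, with a median of -0.37, and in the DMSO library 3 and 13 of 41, with a median of -0.26. With a pseudocount of 0.5 in place of 0.05, 1 was higher and 1 lower in DBZ members. Higher were Slc1a4 (1.06 and 0.44) and Slc6a9 (0.95 and 1.13), which carry neutral amino acids and glycine into cells. Lower were Asns, the asparagine synthetase, with 0.186 against 0.496 per 10000 in DBZ cells (-1.21; -0.93 in the DMSO library), the stress gene Nupr1 (-2.53 and -2.36), the translation inhibitor Eif4ebp1 (-1.01 and -1.20) and the tRNA synthetase genes Wars (-1.0 and -2.10) and Tars (-0.99 and -1.29). Atf4 itself had 0.06 and -0.10.

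The upstream sequence of Pycr1 is shown as that of a gene that defines these cells and belongs to the amino acid list. Its own level was fixed by the choice of cells and is not set against that of the list. The sequence covers chr11:120643749-120643998 of GRCm38.p6, read on the minus strand from 5′ to 3′, and capitals mark the match to TGATGNAA, the core of the amino acid response element that ATF4 binds, searched on both strands.
Pycr1: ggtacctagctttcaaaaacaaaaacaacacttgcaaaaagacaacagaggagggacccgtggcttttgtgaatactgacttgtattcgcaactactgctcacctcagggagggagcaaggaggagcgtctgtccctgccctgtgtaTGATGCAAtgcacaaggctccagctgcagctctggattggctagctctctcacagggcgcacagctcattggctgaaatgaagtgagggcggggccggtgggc
Pycr1 had 1 match and was the only gene with one among the 14 genes of proline and serine synthesis that had a window, while the window of Aldh18a1 had 0. Among 43 genes of the wider list, 15 had a match, Asns, Nupr1 and Tars among them, and 3.45% of all 32851 windows held one. These counts concern letters in 250 bases and say nothing of binding.

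Beyond Gulo, the genes of vitamin C synthesis and use had changes in both directions. Of 17 tested genes, 3 were higher and 2 lower in DBZ members, with a median of 0.13, and 3 and 4 in the DMSO library, with a median of -0.12. Over all tested genes 9.13% were higher and 5.82% lower with DBZ, and 18.8% and 15.4% with DMSO. Counts this small are not read as a movement of the list. Tet2 and Tet3, which oxidise methylcytosine in DNA and use vitamin C as a cofactor, were the other 2 that were higher. Tet2 averaged 1.61 per 10000 in DBZ members against 0.528 (log2 change 1.52) and 0.600 against 0.139 in the DMSO library (1.78). Tet3 had 1.04 and 1.32. Among the prolyl hydroxylases, the collagen enzyme P4ha2 (-0.71 and -1.87) and the oxygen sensor Egln3 (-0.67 and -1.63) were lower. Ugdh and Akr1a1, which act upstream in sugar acid metabolism, had changes between -0.37 and 0.20 in the 2 libraries.

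The partners of Ptn and the proteoglycans related to Spock2 changed in both directions. Of 12 tested genes other than Ptn and Spock2, 2 were higher and 2 lower in DBZ members (median 0.14), and 5 and 3 of 13 in the DMSO library (median 0.23). The shares over all tested genes were 9.13% and 5.82% with DBZ and 18.8% and 15.4% with DMSO. The glypicans Gpc1 (1.33 and 0.67) and Gpc4 (0.65 and 1.03) were higher in both libraries. Syndecan-2, Sdc2, was lower (-1.24 and -1.55), as was nucleolin, Ncl (-0.67 and -0.71), a binding partner of Ptn that is mainly known from the nucleolus. The Ptn receptor gene Ptprs had 0.51 with DBZ and 0.72 with DMSO, and Sdc1 0.52 and 0.67. The coreceptor gene Nrp1, tested in the DMSO library alone, had 0.78 there and -1.28 in the DBZ library, where it was too rare to be tested. The growth factor gene Hbegf had -0.39 and -1.21.

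More Wnt genes were higher than lower in members of both libraries, and several feedback inhibitors were among the higher ones. Of 21 tested genes of the Wnt list 12 were higher and 4 lower in the DBZ library, with a median of 0.73, and 13 and 5 of 22 in the DMSO library, with a median of 0.80. Over all genes of the DBZ library 9.13% were higher, as given above. Notum, a secreted enzyme that inactivates Wnt ligands, averaged 28.7 per 10000 in DBZ members and 12.6 in other DBZ cells (log2 change 1.18), and 30.9 against 7.77 in the DMSO library (1.98). Wif1, which binds Wnt proteins outside the cell, averaged 3.82 against 1.46 (1.36) and 3.89 against 0.595 (2.61). Nkd1, an inhibitor inside the cell, had 1.03 and 1.33, Axin2, the scaffold that helps to destroy beta-catenin, 0.73 and 0.78, and Dkk3 1.38 and 1.39. Rnf43 and Znrf3, which remove Wnt receptors from the surface, had 0.82 and 0.95 in the DBZ library, and 0.93 and 0.49 with DMSO. The transcription factors Tcf7 (1.12 and 0.99) and Lef1 (0.90 and 1.47), through which beta-catenin acts, and Prox1 (0.84 and 1.03) were higher as well. Sp5, a Wnt target and repressor, had 0.18 and 1.17. The secreted antagonist gene Dkk2 went the other way, with -0.83 in the DBZ library, where it was too rare to be tested, and no UMI in DMSO members, at least 2.32-fold lower than in other DMSO cells.

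Growth-related genes of the same pathway did not share that direction, and stem genes were mixed. Ccnd1, the cyclin of cell cycle entry, was lower in members of both libraries (-1.21 and -1.82), as were Myc (-0.60 and -1.12), Ascl2, a factor of crypt stem cells (-0.86 and -0.66), and Mmp7, a protease that Paneth cells also make (-2.73 and -1.84). Lgr5, a receptor and marker of crypt stem cells, averaged 2.19 per 10000 in DBZ members against 0.895 in other DBZ cells (log2 change 1.25, thinned shares 60.5% and 29.9%), and 1.77 against 1.32 in the DMSO library (0.41). Of 16 tested crypt stem genes 5 were higher and 5 lower in the DBZ library, and 6 and 5 in the DMSO library. Besides the Wnt genes above, Tnfrsf19 (0.60 and 0.96) and Msi1 (0.63 and 0.99) were higher. Cdca7 (-1.85 and -1.80), Igfbp4 (-0.96 and -1.25), Slc12a2 (-0.89 and -1.42) and Rgmb (-0.84 and -0.96) were lower.

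**Figure D4:**
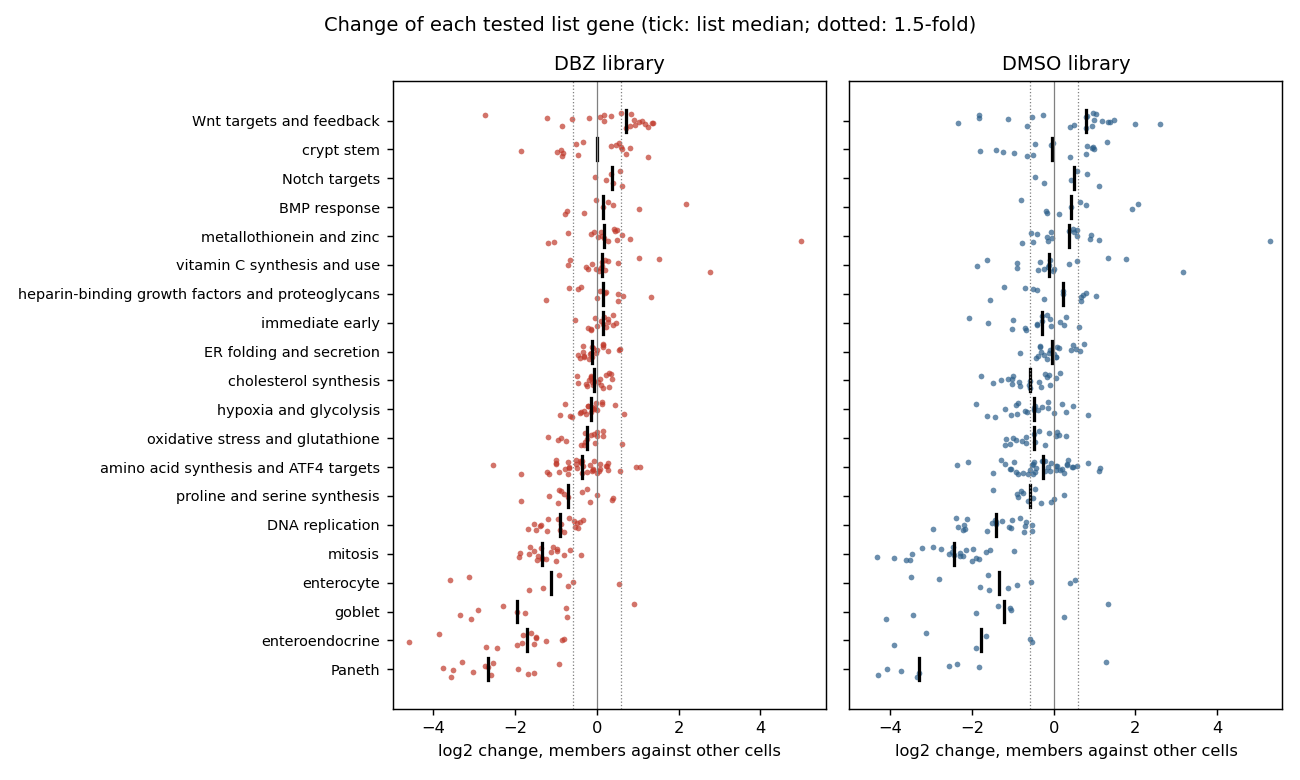
Log2 change of members against other cells (horizontal axis) for each tested gene of 20 lists in the DBZ library (left) and the DMSO library (right); points are genes, ticks are list medians and dotted lines mark 1.5-fold. Of these lists Wnt genes have the highest medians (0.73 and 0.80), and Paneth, enteroendocrine, goblet, enterocyte, mitosis and DNA replication genes have the 6 lowest in both libraries.

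Other signalling genes were also among the highest changes. Of the 15 genes with the highest change in the DBZ library and the same sign in the DMSO library, Mt4 and Gulo are described above and the others lay between 2.03 and 3.17. Npy, the gene of neuropeptide Y, averaged 10.8 per 10000 in DBZ members against 1.16 (log2 change 3.17), with a median of 1.01 and a highest cell at 257.93, and the 5 highest cells gave 39.8% of the mean. In the DMSO library Npy had 0.545 against 0.0397. Bmp4, a ligand of the BMP pathway, averaged 1.03 against 0.190 (2.18) and 0.478 against 0.0759 (2.07). Tgfb2, a ligand of the TGF-beta pathway, had 2.09 and 3.10. The transcription factor Maf had 2.20 and 1.43, Prickle2, a gene of planar cell polarity, 2.04 and 2.42, and the lipid kinase gene Dgkg 2.1 and 2.44. Col9a2, a collagen chain known from cartilage, had 2.41 and 2.40, and Papss2, which makes the sulfate donor used for proteoglycans, 2.03 and 1.09.

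Most of these genes were found in a minority of members. After thinning, the mucin-like gene Parm1 (2.25 and 2.38) was found in 59.9% of DBZ members and Proser2 (2.34 and 2.75) in 61.0%, but Col9a2 in 12.8% and Dgkg in 15.7%. Tmem255a (2.13 and 3.63) was found in 21.5% and Sidt1 (2.11 and 2.26) in 20.3%. For Prss56, a serine protease gene, 87.4% of the mean in DBZ members came from 5 cells. Its change of 2.09 became 0.87 without the highest member and was 0.34 in the DMSO library, and it turned to -0.40 when the sum was taken without Mt3. Avil, a tuft cell gene of the cytoskeleton, had 2.01 and 1.6, but the tuft list had only 4 of 14 genes in the table.

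Genes of the BMP list were mixed. Of 9 tested, Bmp4 and Id4 (1.04 and 1.91) were higher in the DBZ library, and Id1 (-0.79 and 0.13) and Id3 (-0.73 and -0.18) were lower there. With DMSO 4 of 9 were higher and 1 lower (median 0.42). These were Bmp4, Id4, the pathway inhibitor Smad7 (0.40 and 0.80) and Bmp7 (0.27 and 0.65), and on the lower side Bambi, a decoy receptor (-0.03 and -0.79). Hes1, the classical Notch target, was higher in members than in other cells within each library, with 1.23 against 0.790 per 10000 (log2 change 0.61) in DBZ cells and 7.02 against 3.23 (1.11) in DMSO cells. It was the only Notch target among 6 tested that passed 1.5-fold in the DBZ library, and Sox9 passed it beside Hes1 in the DMSO library (0.34 and 0.81).

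Secretory cell products were lower on average in members. All 13 tested Paneth genes were lower in the DBZ library (median -2.67), as were all 14 enteroendocrine genes (median -1.71) and 8 of 9 goblet genes (median -1.94), the exception being S100a6, which many epithelial cells make (0.91). Among genes tested with DMSO, 8 of 9 Paneth, 4 of 6 enteroendocrine and 6 of 8 goblet genes were lower, and S100a6 (1.32) and Pnliprp2 of the Paneth list (1.29) were higher. After thinning, which left fewer genes to test, 9 enteroendocrine genes were lower in DBZ members. Among the 15 lowest genes were the gut hormone gene Ghrl (-3.85), the Paneth genes Ang4 (-3.77), Defa17 (-3.58), Defa3 (-3.51), Defa24 (-3.03) and Mptx2 (-2.67), the goblet genes Spink4 (-3.36) and Tff3 (-3.07), and Clps (-3.31), Guca2a (-2.90), Lgals4 (-2.88) and Chgb (-2.71). The antimicrobial lectin genes Reg3b (-3.59) and Reg3g (-3.12), here on the enterocyte list, were low as well, and 7 of 8 tested genes of that list were lower (median -1.12). Defa24 averaged 9.81 per 10000 in DBZ members and 80.5 in other DBZ cells, and Tff3 1.88 and 16.2. Ang4, Defa3 and Guca2a had no UMI in DMSO members, which made them at least 7.28-fold, 2.48-fold and 3.01-fold lower there in pooled UMIs, with 3 UMIs over the group as the floor.

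The Paneth and enteroendocrine means are carried by a minority of the other cells. The summed Paneth list had a median of 17.2 per 10000 in DBZ members and 23.1 in other DBZ cells, but its 95th percentile was 401.74 in members and 2009.3 in other cells. The enteroendocrine sum had medians of 1.82 and 2.29. The goblet sum is not read in this way, since S100a6 made up 92.4% of it in DBZ members and 44.8% in other DBZ cells. UMIs of Defa24 were found in all DBZ members and in 99.9% of other DBZ cells, so a detected defensin does not mark a Paneth cell in this library. Without the members and other cells among the 400 highest of the Paneth, the enteroendocrine or the mitosis sum, a choice made after seeing the data that leaves out cells by these same genes, 4 Paneth and 0 enteroendocrine genes were lower in 128 DBZ members, and 9 Wnt genes were higher.

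Dividing cells were few among the members. Of 19 tested mitosis genes 18 were lower in the DBZ library (median -1.34), and all 23 in the DMSO library (median -2.44, or -1.89 with genes absent from DMSO members set to their bound). With a pseudocount of 0.5, or after thinning, 5 mitosis genes were lower in the DBZ library. Thinning also left fewer genes to test, 6307 of all genes in place of 8851. Of 18 replication genes 12 were lower in the DBZ library (median -0.89) and 20 of 22 in the DMSO library (median -1.42). After thinning to 5000 UMIs, at least 10 UMIs of the mitosis list were found in 5 of 172 DBZ members, 2.91% (0.950 to 6.65%), against 11.1% of other DBZ cells (9.31 to 13.2%). In the DMSO library it was 0 of 28 members, which allows up to 12.3%, against 14.9% of other cells. For replication genes the shares were 2.33% and 6.92% with DBZ and 3.57% and 13.7% with DMSO. As for the secretory genes, the difference in means was carried by a minority of cells. The median mitosis sum was 0 in DBZ members and 0.676 in other DBZ cells, and its 95th percentiles were 3.40 and 49.3. Without the secretory and dividing cells 1 mitosis gene was lower, but that setting leaves out cells by these same genes. It therefore cannot show where the difference lies.

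Other cell types were checked by their markers. Of 7 fibroblast markers only Vim was in the table, and of 7 immune markers only Cd74, so Col1a1, Pdgfra, Ptprc and Tyrobp were among those with no values here. Vim, which also marks mesenchymal features of epithelial cells, averaged 9.10 per 10000 in DBZ members against 5.18 (log2 change 0.81) and 35.6 against 11 in DMSO members (1.69). The neural and glial list was included because Mt3 and Ptn are well known from brain. Besides those 2 genes, 8 of its 14 others were in the table, and of these Snap25 (-0.91) and Aldoc (0.32) were tested in the DBZ library. Cd74 averaged 0.168 against 0.335 in the DBZ library (-0.82) and 0.333 against 0.121 in the DMSO library (1.17), the last from 8 UMIs in 3 members. The glial genes Aqp4 and Slc1a3 had no UMI in DBZ members, and in the DMSO library they were in 14.3% and 3.57% of members and 16.3% and 1.17% of other cells. The summed list without Mt3 and Ptn had a median of 1.41 in DBZ members and 1.15 in other DBZ cells, with 95th percentiles of 6.2 and 6.68, and medians of 3.05 and 2.15 in the DMSO library. Aldoc gave most of this sum, with a mean of 1.76 of 2.06 in DBZ members and 1.40 of 1.96 in other DBZ cells. In the DMSO library it gave 3.29 of 3.46 and 2.75 of 3.01, so the sum is not read as a neural level. Both endothelial markers in the table, Pecam1 and Cldn5, were in under 4% of each group. Any part of other cell types in the results was not tested beyond these values.

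Levels changed by degrees along the ranking. In DBZ cells Gulo averaged 2.13 per 10000 in ranks 1 to 100, 0.718 in ranks 101 to 200, 0.632 in ranks 201 to 300, 0.430 in ranks 301 to 400, 0.189 in ranks 401 to 600 and 0.083 in the rest. Mt4 dropped more steeply, from 3.85 and 0.640 in the members to 0.084 in ranks 201 to 300 and between 0.013 and 0.022 beyond. Notum had 33.9, 23.8, 31.6, 20.4, 16.3 and 9.18 in the same bands, so just outside the members it lay between the levels of the 2 member bands. Nsf, a vesicle fusion gene named after its values were seen, had 9.01, 6.17, 4.74, 4.93, 3.02 and 1.33. Mt1 ran the other way, with 4.21 and 4.30 in members and 10.9 in the last band. In DMSO cells, where the member bands held only 17 and 11 cells, Gulo had 0.757 and 0.367 in the members and at most 0.186 beyond them.

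**Figure D5:**
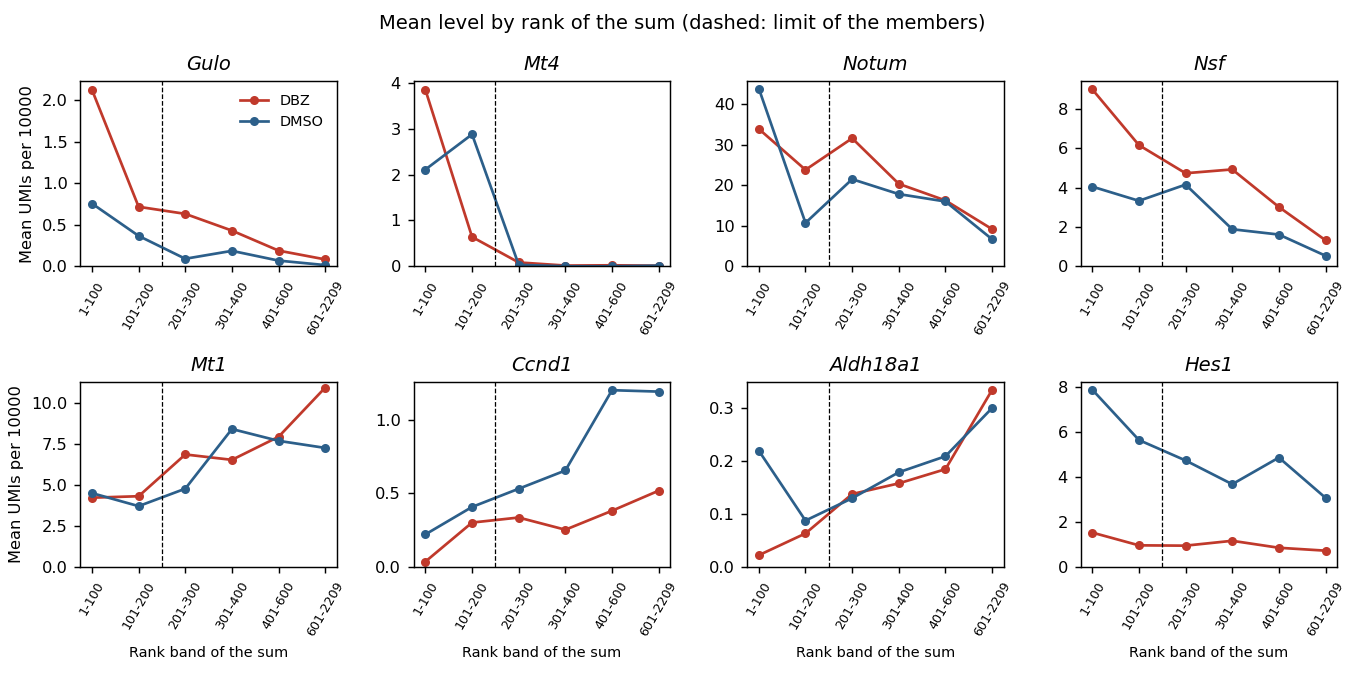
Mean UMIs per 10000 (vertical axis) of 8 genes that did not enter the sum, in 6 bands of rank by the sum (horizontal axis), with DBZ cells in red, DMSO cells in blue and the limit of the members dashed. Gulo and Nsf are highest in the first band of DBZ cells and Notum is high on both sides of the limit, Mt4 is near 0 outside the members, and Mt1 and Aldh18a1 are highest in the last band of DBZ cells; the DMSO member bands hold 17 and 11 cells.

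Members of the DBZ library had less Hes1 and more defensin, Tff3 and Npy transcripts than members of the DMSO library, and so did the other cells of the DBZ library. Between DBZ and DMSO members 1788 of 8982 tested genes (19.9%) were at least 1.5-fold higher with DBZ and 976 (10.9%) lower. Between the other cells of the 2 libraries it was 628 of 8772 (7.16%) and 381 (4.34%), counts that rest on many more cells and so are not directly comparable. Hes1 averaged 1.23 per 10000 in DBZ members and 7.02 in DMSO members (log2 change -2.46), and 0.790 against 3.23 in the other cells (-1.96). Npy had 4.19 in members and 3.76 in other cells. The defensins Defa22 (4.74), Defa21 (4.22), Defa20 (4.13) and Defa24 (3.72) and Tff3 (4.2) were among the 8 highest in members, and in other cells they had between 2.43 and 3.17. In DBZ members 5 cells gave 59.6% of the Defa22 mean and 67.5% of the Defa21 mean, and the split of reads among defensin genes is uncertain because they are near-identical copies. Rab3c, a GTPase of secretory vesicles, had no UMI in DMSO members and 1.08 per 10000 in DBZ members, at least 10.2-fold more against a floor of 3 UMIs.

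At the low end were Cd177 (-3.21), Gjb1 (-2.35), Gdf15 (-2.32), Noxa1 (-2.27), Cited4 (-2.26), Sesn1 (-2.14) and Id1 (-2.03). Apart from Id1 these rest on 7 to 24 UMIs in DMSO members and 3 to 29 in DBZ members, and for Cd177 the 5 highest cells gave 92.6% of the DMSO mean. In other cells Gdf15 had -2.29, Cited4 -2.13, Cd177 -0.42 and Sesn1 -0.09, and whether members and other cells differ in this was not tested. Of the genes that chose the members, Mt3 (-0.31), Spock2 (0.16), Pycr1 (0.48) and Ptn (-1.08) are given as a description only. Means of Mt4 (-0.14), Notum (-0.10), Wif1 (-0.03), Mt1 (0.03) and Mt2 (0.11) were about the same in members of both libraries. For Mt4, pooled UMIs were a lower share with DBZ, 405 of 2103112 against 117 of 324149 in DMSO members. Those 117 UMIs came from 8 cells, and 5 cells gave 95.1% of the DMSO mean, so an equal Mt4 level is not shown. Gulo was higher with DBZ (1.40 against 0.604 per 10000, log2 change 1.15), and Tet2 had 1.35. The other cells differed between the libraries in these 2 genes as well, by 1.56 and 1.61, and the DMSO Gulo mean rests on 14 UMIs as given above. Of 21 tested Wnt genes 2 were higher and 3 lower, with a median of 0.07, beside a median of 0.09 over all genes.

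The members were set beside the 200 cells highest in Nts, Aldh1a2 and Ly6d and the 200 highest in Cyp2c55 and Msx3, which like the members came mostly from the DBZ library (178 and 174 cells). The first set shared 39 DBZ and 2 DMSO cells with the members and the second 9 and 1. Without the shared cells, Gulo averaged 0.423 per 10000 in the Nts set and 0.213 in the Cyp2c55 set of the DBZ library, against 1.40 in DBZ members. Mt4 averaged 0.0090 and 0 in these sets. Leaving out the shared cells takes away those highest in the 4 genes of the sum, and Mt3 and Mt4 correlated at 0.52 over all DBZ cells. How far this lowers Mt4 and Gulo in the 2 sets was not tested. Pycr1, a gene of the sum, averaged 2.76 and 0.737, which is a description only, since the sum chose the members. Notum averaged 8.42 and 17.2, against 28.7 in DBZ members, and Wif1 1.51 and 0.941 against 3.82. Axin2, by contrast, was as high in the Nts set, 5.78 against 5.88. Median depths of the Nts and Cyp2c55 sets were 12365 and 12596 UMIs. Npy was also common in the Nts set, in 32.4% of its DBZ cells after thinning against 45.3% of DBZ members, with a mean of 2.94 against 10.8. Thinned shares were 52.5% and 59.9% for Parm1 and 20.9% and 27.3% for Bmp4, and Pglyrp1 averaged 8.38 against 13.2. Tgfb2 differed more, with 2.88% and 19.2%, as did Maf, with 4.32% and 30.8%. Aldh1a2 itself, which makes retinoic acid, averaged 0.653 in DBZ members and 0.281 in the other DBZ cells (log2 change 1.09), and Nts 0.660 and 1.86 (-1.43).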

How the data were processed

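Single-cell RNA was measured in 1 DBZ and 1 DMSO library. Per the submitters' processing notes, Cell Ranger 2.1.1, Seurat (version not named) and build mm10 were used. For the annotation, the filters and the assignment of shared reads the sources used here give nothing. What the authors deposited are natural log values, ln of 1 plus UMIs per 10000 UMIs of a cell. UMIs were recovered from all 7553435 values above 0, each within 0.01 of a whole number. These remain normalized values, so no count model was fitted, and with 1 library per treatment there was no test.

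Cells were ranked on the sum of the 4 log values, and no cell was removed. No doublet caller was run. Means per 10000 UMIs weight each cell equally, and changes are log2 ratios of means after adding 0.05, which understates the change of low genes. Genes needed a UMI in 10% or more of 1 of the groups compared. Ratios of pooled UMIs have exact conditional 95% intervals and shares of cells exact Clopper-Pearson ones, for counting error only. Thinned shares use 5000 UMIs per cell and left out no cell. At 0, a fold is a bound against 3 UMIs over the group. Coordinates are from GENCODE M21 (GRCm38) and upstream sequences from RefSeq (GRCm38.p6).

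The members and gene lists were chosen with earlier results of these data known. Named genes are Mt3, Spock2, Pycr1, Ptn and Gulo; the 15 highest and 15 lowest changes in the DBZ library with the same sign in the DMSO library; the 8 highest and 8 lowest between DBZ and DMSO members; the detected genes of the metallothionein and zinc, vitamin C, heparin-binding and proline lists; and from other lists the 2 to 4 largest changes and the most expressed gene. Gm, Rik, mitochondrial and ribosomal protein genes, Xist and the 4 genes of the sum were left out of the ranked parts. Not all genes so named are reported here. Further genes of the lists that the text names, and Nsf and Pglyrp1, were chosen after their values were seen. Of 518 listed genes 444 were in the table. Python 3.11.15, numpy 2.4.6, pandas 2.3.3, scipy 1.17.1 and matplotlib 3.10.9 were used, and the code was tested on simulated data. Alternatives tried were other numbers of members, sums without 1 gene, scaled or thinned values, equal shares of both libraries, cells left out, other pseudocounts and filters, and pooled UMIs.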

Additional observations from a re-analysis of the deposited data

Results flagged for a closer look

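Of the 181 genes named by rule, 22 had changes of opposite sign in the 2 libraries. The 4 given first are those whose exact intervals for pooled UMIs lay off 0 in both libraries, and in each case the difference between the libraries was not tested. Nsdhl, an enzyme of cholesterol synthesis, had log2 changes of 0.36 with DBZ and -1.11 with DMSO. The neurotensin gene Nts had -1.43 and 0.52, the latter from UMIs in 3.57% of the 28 DMSO members. Rab3c had 0.37 and -2.19, with no UMI in DMSO members. Sesn1, a p53 target, had -0.58 and 1.47, and in DBZ members all of its mean came from 5 or fewer cells. Cd177 (-0.73 and 2.06) and Cd74 (-0.82 and 1.17) were the 2 that passed 1.5-fold in opposite directions, with 1 interval each that held 0.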

How the results depend on the processing

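Of 112 named genes past 1.5-fold, 1894 of 1904 recomputed changes kept their direction and 1793 stayed past 1.5-fold. Part of this was fixed in advance. Other filters cannot alter the change of a single gene, and other pseudocounts cannot turn its sign. Members shared with the main choice were 186 of 200 with scaled genes, 180 after thinning, 168 without Mt3, 165 without Spock2, 173 without Pycr1 and 174 without Ptn. Taking the same share of each library gave 112 DBZ cells among 200 members, 1034 genes higher in DMSO members in place of 1700, and 26.6% members among the nearest cells in place of 41.3%. With 100 members that share was 19.5%, and 822 genes were lower in DBZ members in place of 515. A pseudocount of 0.5 left 183 genes higher and 99 lower in DBZ members, 261 higher in DMSO members and 202 higher with DBZ among members, with 1 amino acid gene higher, 1 lower and 5 mitosis genes lower. Without a filter, 836 genes were lower, 25 enteroendocrine genes were lower and 2725 genes were higher with DBZ among members. Pooled UMIs gave 1366 genes higher in DBZ members. Gulo had 3.09 with 100 members, 3.02 with equal shares, with a pseudocount of 0.01 and with pooled UMIs, and 1.52 with a pseudocount of 0.5. Thinning, with 6307 genes tested in place of 8851, left 1 amino acid gene higher, 5 mitosis genes lower and 9 enteroendocrine genes lower. Without secretory and dividing cells, which removes cells by these genes, 1 mitosis, 4 Paneth and 0 enteroendocrine genes were lower, and the sign turned for Ang4 (0.00131), Defa17 (0.093), Defa21 (0.62), Defa22 (0.00848), Chga (0.61), Chgb (0.00506), Insm1 (0.52), Spink4 (0.35) and Ccna2 (0.26). Prss56 had -0.40 with a sum without Mt3. The cause of the other shifts was not tested. No replicates exist to leave out, and 28 DMSO members with 324149 UMIs limit every DMSO value. Leaving out the cells with shared barcodes gave 171 DBZ members and 809 genes higher in them. That setting and the one without secretory and dividing cells were chosen after seeing the data. No paired analysis was possible because each treatment has 1 library.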

Other observations

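Cholesterol synthesis and hypoxia genes were lower in a larger share of genes in DMSO members than in DBZ members. Over all tested genes 5.82% were lower in DBZ members and 15.4% in DMSO members. None of 20 cholesterol synthesis genes passed 1.5-fold in the DBZ library (median -0.08), whereas 10 of 20 were lower in the DMSO library (median -0.59), with Dhcr7 at -0.48 and -1.78 and Fdps at -0.45 and -1.49. Of the hypoxia and glycolysis genes, 4 of 21 were lower in the DBZ library (16 below 0, median -0.13) and 10 of 22 in the DMSO library (median -0.48). Vegfa, the vascular growth factor gene, was the 1 that was higher in both (0.67 and 0.85). Immediate early genes had 0 of 15 past 1.5-fold in the DBZ library, and 1 higher and 6 lower of 17 in the DMSO library. These differences between the libraries were not tested, and the DMSO values rest on 28 cells.

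In the glutathione list 1 of 17 genes was higher and 4 lower in DBZ members, and 0 and 8 in DMSO members. The higher one was the haem oxygenase gene Hmox1 (0.63 and -1.07). The lower ones were the peroxidase genes Gpx2 (-1.19 and -0.69) and Gpx1 (-0.87 and -0.99) and the transferase genes Gstm1 (-0.96 and -0.91) and Gsta4 (-0.75 and -0.79). Among genes linked to fetal-like and regenerating epithelium, 3 of 12 were higher and 2 lower in DBZ members, and 3 and 6 of 14 in DMSO members, with Il33, an alarmin cytokine, at 0.93 and 1.5, Krt19 at -1.21 and -1.24 and the EGF receptor ligand Areg at -1.16 and -1.07. Xbp1, a factor of secretory capacity, was higher in members (0.89 and 0.99) although 0 of 20 genes of endoplasmic reticulum folding and secretion passed 1.5-fold in the DBZ library and 2 were higher and 1 lower in the DMSO library. Pglyrp1, a secreted bacterial recognition protein, averaged 16.3 per 10000 in the 83 DBZ cells of ranks 1 to 100. It averaged 10.3 in the 89 DBZ cells of ranks 101 to 200 and 2.71 in the DBZ cells of the last band.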
